A study of Mus musculus with 71 samples.

Results

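Ileal bile acid uptake and signalling was followed through 7 genes of the 24475 gene IDs in each of 3 bulk RNA-seq tables from Btnl2-KO and WT mice. The genes were listed by name, with earlier results of these data known, and all 7 were found in every table: Fabp6, Slc10a2, Slc51a, Slc51b, Fgf15, Nr1h4 and Nr0b2. The 65 bulk libraries came from C57BL/6 female mice at steady state, in which Btnl2-KO means homozygosity for a null allele made by putting a LacZ cassette into the Btnl2 gene of every cell, and WT means cohoused littermates without that allele. Intestinal epithelial cells (IECs) were the top layer of a Percoll gradient after EDTA stripping of the small intestine, cut into 3 equal parts, at 7 weeks of age. They gave 2 Btnl2-KO and 3 WT libraries from duodenum, 3 and 3 from jejunum, and 3 and 2 from ileum. γδ intraepithelial lymphocytes (IELs) were sorted from the same 3 segments as CD45+ TCRβ- TCRγδ+ cells, each library a pool of 2 mice. Their labels give an age of 10 weeks, which differs from the published age. The γδ IEL libraries numbered 3 Btnl2-KO and 4 WT from duodenum, 4 and 4 from jejunum, and 3 and 4 from ileum. Whole tissue gave 7 Btnl2-KO and 7 WT libraries from small intestine and 7 and 6 from colon. Their labels all begin with YNG, which is not spelled out, and give no age in weeks. Which part of the small intestine was taken is not stated.

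Bile acids made in the liver aid fat absorption in the upper gut and are recovered at its far end, so that most of the pool circulates between intestine and liver. In the ileal enterocyte Slc10a2, the apical sodium-dependent transporter, takes bile acids up from the lumen, Fabp6 binds them in the cytosol, and Slc51a with Slc51b, the subunits of the exporter OSTα-OSTβ, passes them to the blood. Bile acids also bind the nuclear receptor FXR, the product of Nr1h4, which turns on Fabp6, both exporter subunits and Fgf15, a hormone that lowers bile acid synthesis in the liver. Nr0b2 encodes SHP, a small co-repressor that is a classic FXR target in liver.

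Values are CPM, the counts of a gene relative to those of its whole library after TMM scaling of library sizes, which ranged from 13444958 to 38258472 counts over the 65 libraries, and a gene is said to have passed the test at an edgeR quasi-likelihood FDR below 0.05 with a fold change above 1.5. Some libraries stood apart from their labels. A score of 10 distal minus 10 proximal small intestinal marker genes (difference of mean log2 CPM) lay between -3.89 and -2.89 in 4 duodenal IEC libraries, but was 1.27 in the library labelled Btnl2-KO duodenum 1. It was -1.15 to -0.44 in 5 jejunal libraries and 1.31 in the library labelled Btnl2-KO jejunum 2, and 2.70 to 3.48 in 4 ileal libraries and -3.81 in the library labelled Btnl2-KO ileum 1. Btnl2 itself, at 0.342 to 0.595 CPM in the other Btnl2-KO IEC libraries and 25.1 to 67.7 in WT, was 5.45 CPM in the library labelled Btnl2-KO duodenum 1 and 19.5 CPM in the one labelled Btnl2-KO jejunum 2. In γδ IELs and whole tissue it was lower in every Btnl2-KO library than in any WT library of the same group. In whole small intestine the score was 1.94 in Btnl2-KO 1 and 1.91 in WT 5 against 3.50 to 6.01 in the other 12 libraries, and Car1, a colonic carbonic anhydrase, was 845.9 and 1624 CPM in WT 2 and WT 3 against at most 0.610 in the others and 575 to 854 in WT colon. Aqp8, a colonic water channel, was 11.5 and 27.9 CPM in WT 2 and WT 3 against 303 to 416 in WT colon. The sorted γδ IELs carried epithelial RNA: the summed CPM of 12 epithelial genes such as Epcam and Vil1 was 605 to 9033 in them and 8422 to 14310 in IECs, while 9 T cell genes summed to 34590 to 91340 in γδ IELs and 24.9 to 410.7 in IECs. In all of these bulk samples, fewer cells of a type and less RNA per cell cannot be told apart.

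Upstream sequence is shown for 5 members because Fabp6 and Slc10a2 varied together over the libraries, Slc51a and Slc51b make one exporter, and Nr0b2 ran the other way along the gut. Windows of 300 bases, 250 before to 50 after the start site, were taken from RefSeq on build GRCm38.p6 for 6 of the 7 members (all but Fgf15), and are printed 5′ to 3′ on the strand of the gene. They lie at chr11:43601513-43601812 on the minus strand for Fabp6, chr8:5105238-5105537 on the minus strand for Slc10a2, chr16:32487830-32488129 on the minus strand for Slc51a, chr9:65422724-65423023 on the minus strand for Slc51b and chr4:133553126-133553425 on the plus strand for Nr0b2. Capitals mark matches, on either strand, to AGGTCA (a core bound by many nuclear receptors), TTTATG (a core bound by Cdx homeobox factors), AGATAA (the core bound by zinc finger factors such as Gata4) or GTTAAT (part of the site of Hnf1 factors).
Fabp6: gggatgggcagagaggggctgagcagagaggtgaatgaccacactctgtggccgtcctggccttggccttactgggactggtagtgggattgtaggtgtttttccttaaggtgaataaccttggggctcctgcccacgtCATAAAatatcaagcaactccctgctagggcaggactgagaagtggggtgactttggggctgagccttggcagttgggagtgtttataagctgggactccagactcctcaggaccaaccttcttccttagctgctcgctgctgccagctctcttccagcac
Slc10a2: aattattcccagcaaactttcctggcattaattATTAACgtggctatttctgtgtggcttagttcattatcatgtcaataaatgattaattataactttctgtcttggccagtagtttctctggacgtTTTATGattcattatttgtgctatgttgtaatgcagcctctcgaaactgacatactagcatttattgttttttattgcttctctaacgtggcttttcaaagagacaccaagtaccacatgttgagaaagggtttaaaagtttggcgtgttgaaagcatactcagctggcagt
Slc51a: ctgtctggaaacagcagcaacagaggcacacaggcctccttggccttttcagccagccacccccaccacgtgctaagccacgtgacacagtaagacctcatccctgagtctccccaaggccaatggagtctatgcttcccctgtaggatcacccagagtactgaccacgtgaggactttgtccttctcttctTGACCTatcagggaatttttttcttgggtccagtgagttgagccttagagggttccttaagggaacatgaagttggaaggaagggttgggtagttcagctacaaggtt
Slc51b: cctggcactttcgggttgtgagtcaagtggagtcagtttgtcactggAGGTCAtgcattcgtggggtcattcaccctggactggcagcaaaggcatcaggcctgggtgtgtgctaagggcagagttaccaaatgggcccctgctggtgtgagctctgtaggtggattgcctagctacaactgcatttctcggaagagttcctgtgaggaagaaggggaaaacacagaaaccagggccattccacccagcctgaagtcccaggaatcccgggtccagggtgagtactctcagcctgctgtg
Nr0b2: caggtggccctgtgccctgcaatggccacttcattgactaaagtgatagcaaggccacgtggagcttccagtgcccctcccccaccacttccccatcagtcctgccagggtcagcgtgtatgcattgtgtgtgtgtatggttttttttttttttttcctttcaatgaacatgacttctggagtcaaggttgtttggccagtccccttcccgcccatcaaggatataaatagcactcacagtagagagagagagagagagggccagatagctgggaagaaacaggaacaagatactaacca
The windows of Fabp6 and Slc10a2 both held TTTATG, at -111 to -106 and -122 to -117 from the start, and 11.9% of all 32851 windows of this length did so. Slc10a2 also held GTTAAT, found in 7.1% of windows. Slc51a and Slc51b each held 1 copy of AGGTCA, which 16.3% of windows contained. The window of Nr0b2 had none of these letters, and that of Nr1h4 at chr10:89506609-89506908 held all 4, AGATAA being in 11.2% of windows. This Nr1h4 window lies inside the gene, which spans chr10:89454234-89533645 on the minus strand, and not at its 5′ end. The FXR arrangement, an inverted repeat of AGGTCA spaced by 1 base, was in 0.00913% of windows and, in exactly these letters, in none of the members' windows. In a search added after seeing the data, with at most 1 other letter in each AGGTCA copy, it was in 0.731% of windows, and among the members with a window only the Fabp6 window held it at -222 to -210 and at -142 to -130, as aggtgaatgacca and aggtgaataacct.

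In WT IECs the uptake genes Fabp6 and Slc10a2 and the hormone gene Fgf15 were much higher in ileum than in duodenum or jejunum, and Nr0b2 was highest in duodenum. Fabp6 was 586 and 579.7 CPM in the ileal libraries, 7.65, 20.2 and 4.34 in the jejunal and 0.347, 6.58 and 0.799 in the duodenal. Both ileal values stood far above all others, whereas the jejunal and duodenal ranges overlapped through WT duodenum 2. The difference in Fabp6 was 7.84 (SE 1.13) on the log2 scale between ileum and duodenum and 5.75 (SE 0.563) between ileum and jejunum, with edgeR FDR of 0.0150 and 0.00325. The gene lies at chr11:43596040-43601562 on the minus strand.

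Slc10a2 (chr8:5083219-5105287, minus strand) was 37.9 and 43.8 CPM in ileum, 1.05, 1.17 and 0.880 in jejunum and 0.0496, 0.954 and 0.152 in duodenum. Again the 2 ileal libraries were alike and apart, while WT duodenum 2 reached the jejunal level. The log2 difference was 6.75 (SE 0.741) from duodenum and 5.28 (SE 0.202) from jejunum, edgeR FDR 0.00669 and 2.8e-05.

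Of the exporter subunits, Slc51a (chr16:32475578-32487879, minus strand) was present along the whole length, at 78.2, 130.2 and 63.9 CPM in duodenum, 55.0, 118 and 102 in jejunum and 233 and 199.9 in ileum. Both ileal values were the highest, but the difference of 1.26 (SE 0.328) from duodenum on the log2 scale did not pass (edgeR FDR 0.0930), nor did 1.24 (SE 0.296) from jejunum (edgeR FDR 0.124). The difference from duodenum passed by DESeq2 (adjusted p 0.00823), by limma-voom (0.00102) and by edgeR without WT duodenum 2 (FDR 0.000158), and DESeq2 called that from jejunum (0.00387). Slc51b (chr9:65412753-65422773, minus strand) was 3.38, 4.77 and 3.54 CPM in duodenum, 5.27, 8.31 and 15.3 in jejunum and 13.2 and 18.4 in ileum. Its jejunal values spread from near the duodenal level into the ileal range. Slc51b rose by 2.03 (SE 0.274) on the log2 scale from duodenum to ileum, with an edgeR FDR of 0.0121, and the step of 0.73 from jejunum to ileum did not pass (edgeR FDR 0.779).

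Fgf15 (chr7:144896532-144900953, plus strand) was 6.78 and 3.02 CPM in ileal IECs, 0.476, 0.632 and 0.550 in jejunal IECs, and 0.0380 in WT duodenum 3 with none counted in the other two duodenal libraries. The 3 segments did not overlap. The ileal libraries held 269 Fgf15 counts and the duodenal 1, a ratio of 330.5 with an exact 95% counting interval of 58.8 to 13100, and the edgeR FDR was 0.00453. From jejunum to ileum Fgf15 rose by 3.14 (SE 0.411) on the log2 scale, edgeR FDR 0.0120, and from duodenum to jejunum its edgeR FDR was 0.0461.

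The receptor gene Nr1h4 (chr10:89454234-89533645, minus strand) was 28.4, 35.8 and 44.99 CPM in duodenum, 36.2, 41.7 and 37.3 in jejunum and 79.6 and 74.4 in ileum. Duodenum and jejunum overlapped, and ileum was higher than both. Nr1h4 rose by 1.01 (SE 0.154) on the log2 scale from jejunum to ileum (edgeR FDR 0.0237), while the 1.09 (SE 0.240) from duodenum missed the threshold at an edgeR FDR of 0.0571 but passed by DESeq2 (adjusted p 0.00405), by limma-voom (0.00259) and by edgeR without WT duodenum 2 (FDR 0.00517). Nr0b2 (chr4:133553376-133556686, plus strand) was low everywhere, at 0.943, 1.001 and 0.532 CPM in duodenum, 0.0635, 0.0948 and 0.165 in jejunum and with no count in ileum. Duodenum was highest and ileum lowest, with no overlap between segments. With 54 counts in duodenum and 0 in ileum, Nr0b2 was at least 14.7-fold lower in ileum, taking 3 counts over the ileal group as the limit for a count of 0, and passed at an edgeR FDR of 0.0206. Against jejunum the duodenal level was 8.14 times as high (54 against 8 counts, exact 95% counting interval 3.85 to 19.8), which did not pass (edgeR FDR 0.0636).

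Thus 5 of the 7 members passed between WT ileum and duodenum, where 4.42% of all features tested did. Between ileum and jejunum 4 of the 6 tested passed against 1.13% of all features, and between jejunum and duodenum 1 of 7 against 0.32%. All 3 comparisons use the same WT libraries. Libraries of different segments may come from the same mice, the sources used here do not say which, and the tests between segments treat them as separate. Single libraries decided some of these calls: from duodenum to ileum, Fabp6 was lost without WT duodenum 3 (edgeR FDR 0.0503) or WT ileum 1 (0.0705), and Slc51b and Nr0b2 were each lost without WT duodenum 1 (0.0722 and 0.0781), WT ileum 1 (0.0705 and 0.127) or WT ileum 2 (0.0937 and 0.103). From jejunum to ileum, Fgf15 was lost without WT jejunum 2 (0.0539) or WT ileum 1 (0.0859), and Nr1h4 was lost without any one of WT jejunum 2 (0.0539), WT jejunum 3 (0.0709), WT ileum 1 (0.244) or WT ileum 2 (0.0775). The Fgf15 call between jejunum and duodenum was lost without any one of the 6 libraries (edgeR FDR 0.0574 to 0.220), and none of the calls in this paragraph held when all 16 IEC libraries shared 1 estimate of the spread, a fit that called 0 features in each of the 3 comparisons, with 2293, 329 and 1685 features at an unadjusted p below 0.05. That estimate also took in the 3 Btnl2-KO libraries whose regional markers and segment labels disagree, and their part in it was not tested.

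**Figure D1:**
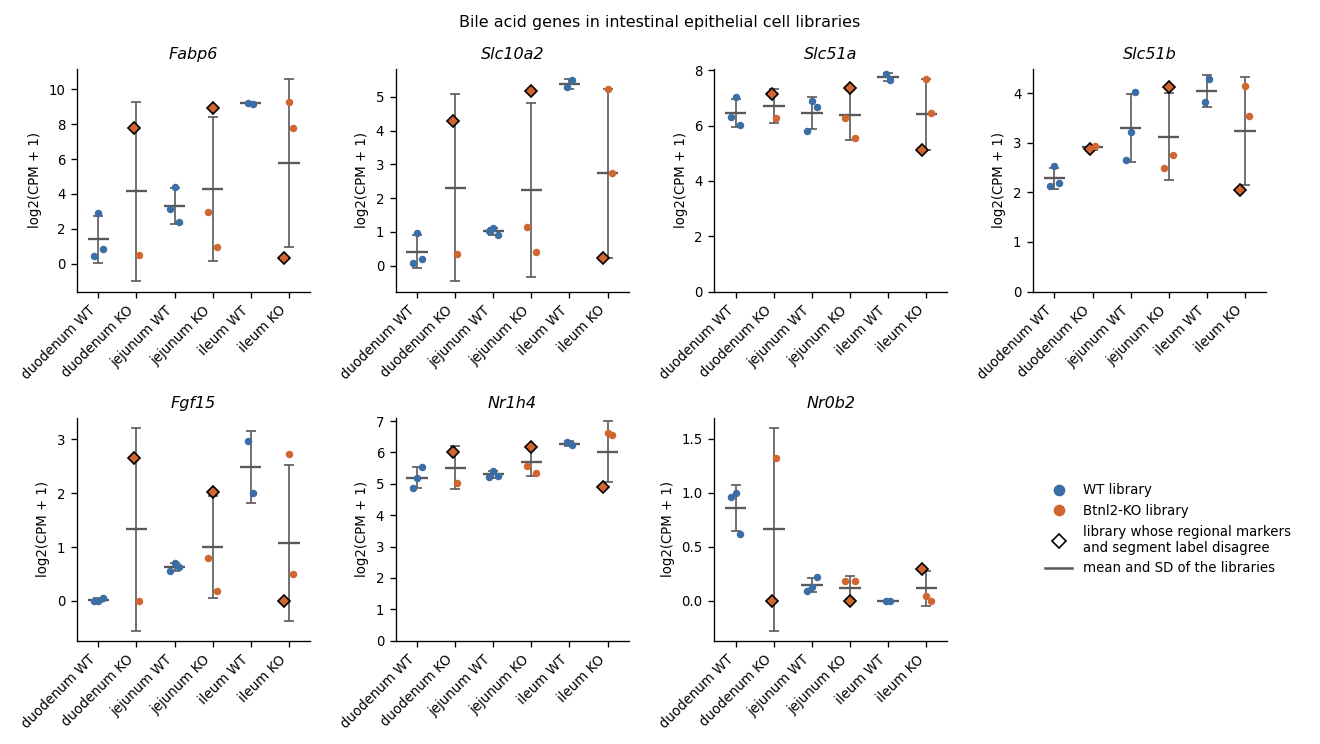
Level of each gene in each IEC library as log2(CPM + 1), by segment and genotype, with bars for the mean and SD. Fabp6 of the 2 WT ileal libraries sits at 586 and 579.7 CPM, and the diamonds mark the 3 Btnl2-KO libraries whose regional markers and segment label disagree.

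In the 3 doubted Btnl2-KO IEC libraries Fabp6, Slc10a2 and Fgf15 differed from their labelled segment in the same direction as the regional markers. The library labelled Btnl2-KO duodenum 1 held 220.3 CPM of Fabp6, 18.3 of Slc10a2 and 5.31 of Fgf15, where Btnl2-KO duodenum 2 held 0.410, 0.273 and no count. The library labelled Btnl2-KO jejunum 2 held 484 CPM of Fabp6, 35.2 of Slc10a2 and 3.08 of Fgf15, where the other two held at most 6.86, 1.22 and 0.735. The library labelled Btnl2-KO ileum 1 held 0.231 CPM of Fabp6, 0.173 of Slc10a2 and no count of Fgf15, where Btnl2-KO ileum 2 and 3 held 613 and 222, 36.5 and 5.70, and 5.64 and 0.415.

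Slc51a and Nr1h4 differed in the same directions on a narrower range. In the library labelled Btnl2-KO ileum 1, Slc51a was 33.6 CPM, below every WT IEC library, and Nr1h4 was 29.1 CPM, within the WT duodenal range. In the library labelled Btnl2-KO jejunum 2 they were 161 and 71.5 CPM, above every WT duodenal and jejunal library. Slc51b was 3.11 CPM in the first and 16.4 in the second, but in the library labelled Btnl2-KO duodenum 1 it was 6.34 CPM, close to the 6.66 of Btnl2-KO duodenum 2. Nr0b2 ran the other way: it had no count in the libraries labelled Btnl2-KO duodenum 1 and Btnl2-KO jejunum 2, was 1.504 CPM in Btnl2-KO duodenum 2, and was 0.231 CPM in the library labelled Btnl2-KO ileum 1. Why labels and markers disagreed was not tested.

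**Figure D2:**
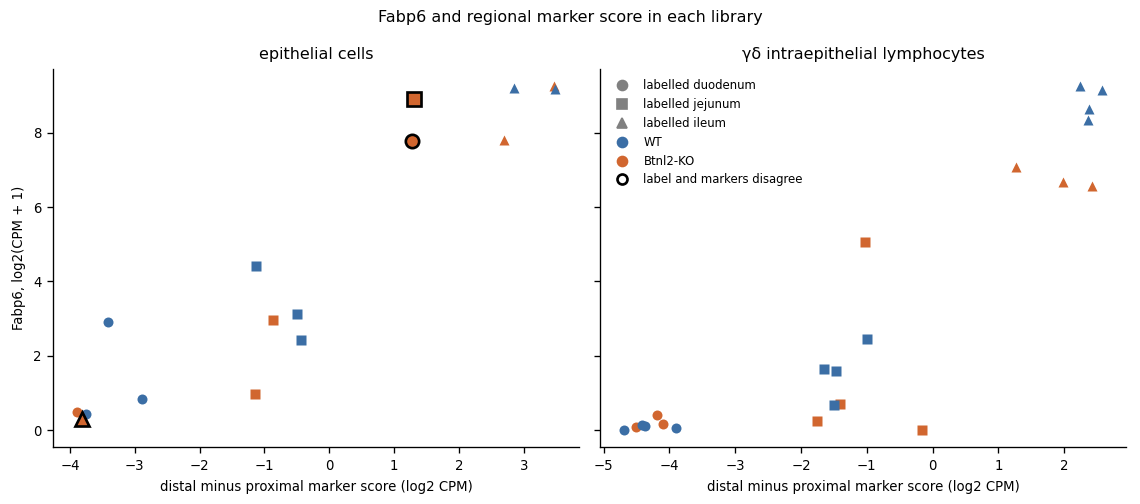
Fabp6 as log2(CPM + 1) against the distal minus proximal marker score (log2 CPM) of each IEC library (left) and γδ IEL library (right), by labelled segment and genotype. The library labelled Btnl2-KO ileum 1, at a score of -3.81, sits among the duodenal libraries, and those labelled Btnl2-KO duodenum 1 and jejunum 2, at 1.27 and 1.31, sit apart from their segments with high Fabp6.

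With these libraries in place, the comparison of genotypes in IECs asks whether loss of Btnl2 changed the members within a segment. No member passed edgeR in duodenum, jejunum or ileum, where 0%, 0% and 0.00774% of all features did. In duodenum 3 of the 6 tested had an unadjusted p below 0.05 (Fabp6 0.0237, Slc10a2 0.0167 and Slc51b 0.0468) among 154 features, in jejunum 1 (Slc10a2, 0.0357) among 1053, and in ileum 0 among 268. DESeq2 and limma-voom also called 0 members in each segment. Btnl2 itself met the count filter in duodenum and jejunum and did not pass edgeR there, so the lack of a call does not show the lack of a difference.

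The direction of Fabp6 and Slc10a2 depended on the doubted libraries. Fabp6 was 5.48 (SE 1.94) higher on the log2 scale in Btnl2-KO duodenum and -2.61 (SE 1.73) without the library labelled Btnl2-KO duodenum 1, and 3.89 (SE 1.76) higher in Btnl2-KO jejunum and -1.43 (SE 0.808) without the library labelled Btnl2-KO jejunum 2. For Slc10a2 the values were 4.63 and -0.46 in duodenum and 3.48 and -0.38 in jejunum. In ileum the difference in Fabp6 was -1.07 (SE 1.74), and -0.49 (SE 0.427) without the library labelled Btnl2-KO ileum 1, when Btnl2-KO ileum 2 lay above and Btnl2-KO ileum 3 below both WT libraries. Fgf15 passed in duodenum only without Btnl2-KO duodenum 2 (edgeR FDR 0.0462), when the doubted library was the single one of its genotype. The duodenal groups had 2 and 3 libraries, the jejunal 3 and 3 and the ileal 3 and 2, so the precision of these differences was low.

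Among WT γδ IELs Fabp6 and Slc10a2 were again highest in ileum, in libraries that carried the epithelial RNA given above. Fabp6 was 399, 610.3, 571 and 322 CPM in ileum, 2.10, 2.03, 0.606 and 4.44 in jejunum, and 0, 0.106, 0.0478 and 0.0786 in duodenum. The 3 segments did not overlap. Fabp6 rose by 7.71 (SE 0.492) on the log2 scale from jejunum to ileum (edgeR FDR 0.000188) and by 5.12 (SE 0.794) from duodenum to jejunum (edgeR FDR 0.00418). The ileal libraries held 29468 Fabp6 counts and the duodenal 4, a ratio of 7817 with an exact 95% counting interval of 3053 to 28690 and an edgeR FDR of 2.15e-08.

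Slc10a2 was far lower than Fabp6, at 0.656, 2.29, 1.73 and 0.904 CPM in ileum, at most 0.0871 in jejunum and at most 0.337 in duodenum. The ileal libraries were above all others. Against jejunum, 85 ileal counts stood beside 3, a ratio of 43.3 with an exact 95% counting interval of 14.3 to 214 (edgeR FDR 0.00316). Slc10a2 rose by 3.42 (SE 0.775) on the log2 scale from duodenum to ileum (edgeR FDR 0.0445), a call lost without WT duodenum 2, 3 or 4 or WT ileum 2, 3 or 4 (edgeR FDR 0.0782 to 0.1501). The call was also lost with the mean log2 CPM of the 12 epithelial genes as a covariate (edgeR FDR 0.116). These Slc10a2 levels rest on 11 to 32 counts per ileal library, against 5702 to 8558 of Fabp6.

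For the exporter, Slc51a was 46.7, 103, 77.7 and 48.2 CPM in WT ileal γδ IELs, and 18.6 to 46.5 in duodenum and 15.2 to 45.2 in jejunum. Slc51b was 10.4, 21.9, 22.7 and 10.2 CPM in ileum, 1.91 to 9.63 in duodenum and 1.89 to 5.69 in jejunum. Both subunits had no overlap between ileum and the other segments, though WT duodenum 1 came close. From jejunum to ileum Slc51a rose by 1.42 (SE 0.366) and Slc51b by 2.29 (SE 0.400) on the log2 scale, with edgeR FDR of 0.0153 and 0.00364, and Slc51a was lost without WT ileum 2 (0.0600) and with all libraries in 1 fit (0.1405). With the mean log2 CPM of the epithelial genes as a covariate the call of Slc51a held at a log2 difference of 0.79 (edgeR FDR 0.0101). Against duodenum, 1.20 for Slc51a and 1.87 for Slc51b did not pass (edgeR FDR 0.0816 and 0.0798). DESeq2 (adjusted p 0.00493 and 0.00178), limma-voom (0.0109 and 0.00728) and edgeR without a filter (FDR 0.0461 and 0.04496) called both, as did edgeR without WT duodenum 1 (FDR 0.0305 and 0.00736) or without WT ileum 1 (0.0342 and 0.0412).

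Nr1h4 was 9.53, 27.9, 38.1 and 26.7 CPM in ileum, 4.43 to 11.3 in jejunum and 6.44 to 12.2 in duodenum, so that WT ileum 1 overlapped both and the other three did not. It rose by 1.88 (SE 0.403) on the log2 scale over jejunum (edgeR FDR 0.00713), a call lost with all libraries in 1 fit (0.0624) and held at 1.05 with the epithelial covariate (0.00873). The 1.51 over duodenum missed the threshold (edgeR FDR 0.0585) and passed by DESeq2 (adjusted p 0.00121), limma-voom (0.00874) and edgeR without a filter (FDR 0.0323) or without WT ileum 1 (0.00202). Fgf15 was 0.358, 6.23, 2.80 and 0.565 CPM in ileum, with 0, 0.363, 0 and 2.09 in jejunum and no count in duodenum. With 145 ileal counts against 0, Fgf15 was at least 51.3-fold higher in ileum than in duodenum (3 counts over the duodenal group), or at least 26.3-fold without WT ileum 2, which held 87 of the 145, without a test because too few libraries had 10 counts, and it did not pass against jejunum (edgeR FDR 0.218). Nr0b2 was 1.48, 1.33, 0.526 and 0.393 CPM in duodenum, 0 to 0.153 in jejunum, and 0.502 in WT ileum 2 with none counted in the other three. It was again highest in duodenum, and was not tested for the same reason.

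Hence 2 of 5 members tested passed between WT ileal and duodenal γδ IELs (2.16% of all features), 5 of 6 between ileum and jejunum (21.7%) and 1 of 4 between jejunum and duodenum (23.3%), the comparisons sharing the same WT libraries. The published sample sizes imply that these segments came from the same pools of mice, which the tests treat as separate. Summed epithelial markers were 3461 to 9033 CPM in the WT ileal, 2044 to 5649 in the jejunal and 3311 to 5303 in the duodenal libraries. Their part in these differences was tested only with their mean log2 CPM as a covariate, under which the count between ileum and duodenum was 1. The Fabp6 calls against ileum held in every alternative tried.

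**Figure D3:**
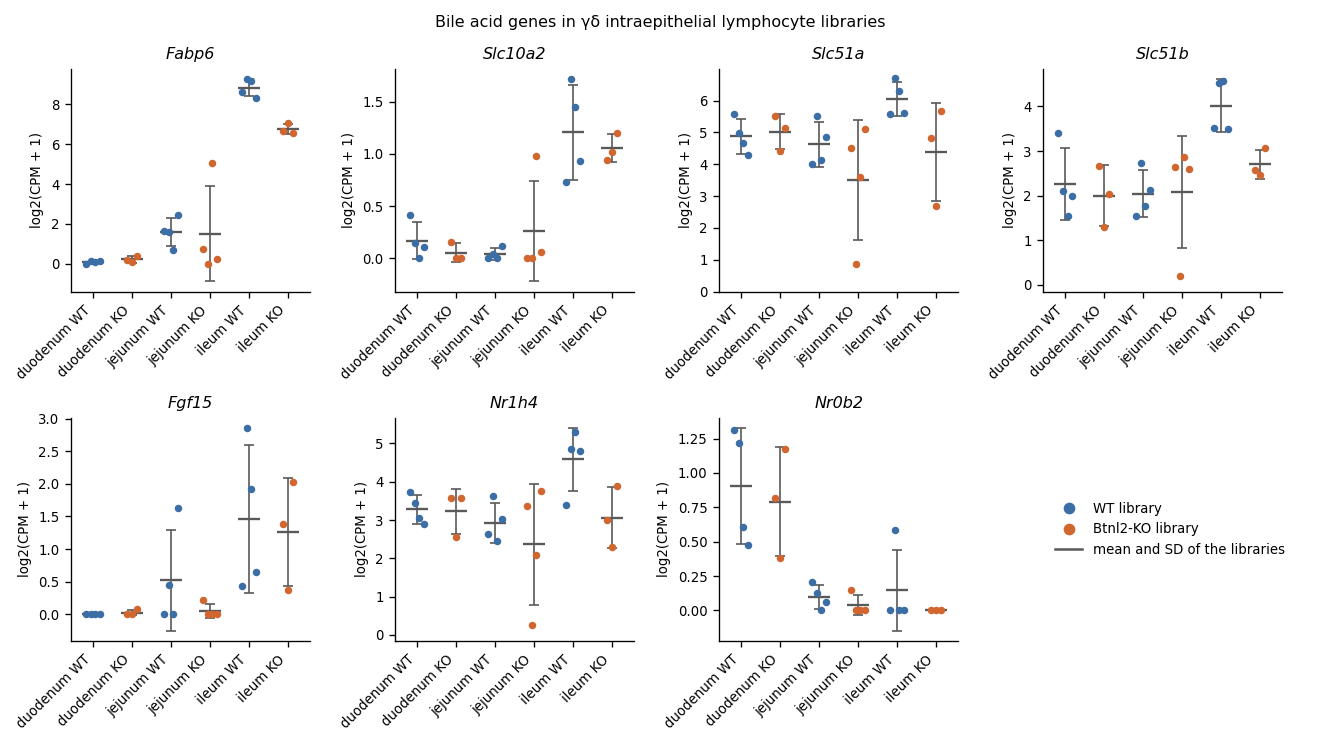
Level of each gene in each γδ IEL library as log2(CPM + 1), by segment and genotype, with bars for the mean and SD. Fabp6 of the 3 Btnl2-KO ileal libraries, 94.4 to 133.7 CPM, sits below all 4 WT ileal libraries at 322 to 610.3 CPM.

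In ileal γδ IELs the genotypes differed most in Fabp6, although no member passed edgeR. Fabp6 was 100.6, 133.7 and 94.4 CPM in Btnl2-KO and 399, 610.3, 571 and 322 in WT. The groups did not overlap, and the difference was -2.09 (SE 0.292) on the log2 scale, with an unadjusted edgeR p of 2.72e-05 and an FDR of 0.264. Slc51b was 5.001, 4.48 and 7.44 CPM in Btnl2-KO against 10.4, 21.9, 22.7 and 10.2 in WT, also with no overlap, a difference of -1.51 (SE 0.385; edgeR p 0.00278, FDR 0.432).

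Nr1h4 was 6.98, 3.89 and 13.7 CPM in Btnl2-KO against 9.53 to 38.1 in WT, and Slc51a 27.1, 5.44 and 49.9 against 46.7 to 103, each with 1 Btnl2-KO library inside the WT range. Their log2 differences were -1.62 (SE 0.503; edgeR p 0.00888, FDR 0.445) and -1.32 (SE 0.573; edgeR p 0.0436, FDR 0.553). Slc10a2, at 0.926, 1.03 and 1.30 CPM, lay within the WT range of 0.656 to 2.29, with a log2 difference of -0.33 (SE 0.576), and Fgf15, at 1.61, 0.294 and 3.07 CPM, overlapped WT likewise. Nr0b2 had no count in any Btnl2-KO ileal library.

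No feature of the whole table passed edgeR here (0% called, 1108 at an unadjusted p below 0.05), and the choice of tool decided the members' calls. Btnl2 itself, the targeted gene, met the count filter with 0 to 2 counts in Btnl2-KO and 37 to 53 in WT libraries, and did not pass either. The lack of an edgeR call here thus does not show the lack of a difference. DESeq2 called 2 features higher and 219 lower, Fabp6 (adjusted p 6.31e-09), Slc51b (0.0148) and Nr1h4 (0.0424) among them, and limma-voom with quality weights called 391 higher and 816 lower, with Fabp6 (0.00114), Slc51b (0.0297), Nr1h4 (0.0264) and Slc51a (0.0313). Over the other edgeR settings the FDR of Fabp6 was 0.0961 to 0.584. Over the 7 edgeR fits that each left out 1 library it was 0.0391 to 0.998, with log2 differences of -2.29 to -1.96. Only the fit without WT ileum 1 passed (FDR 0.0391, log2 difference -2.16).

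Epithelial RNA moved with genotype in these libraries. The 12 epithelial genes summed to 2883, 1014 and 3635 CPM in Btnl2-KO and 3461, 9033, 7947 and 6771 in WT, with none of them at 0 in any library, and 9 T cell genes summed to 38890 to 60710 and 35250 to 51730. With the mean log2 CPM of these 12 epithelial genes as a covariate, in place of their sum, the difference in Fabp6 was -2.21 (SE 0.421, edgeR FDR 0.584). That in Slc51b was -0.87, in Nr1h4 -0.34 and in Slc51a -0.04. As a share of the epithelial sum, Fabp6 was 3.49%, 13.2% and 2.60% in Btnl2-KO and 11.5%, 6.76%, 7.18% and 4.76% in WT, which overlapped (difference of mean log2 -0.54, exact two-sided permutation p 0.514). Btnl2-KO ileum 2, with the lowest epithelial sum, had the highest share.

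The ratio of Fabp6 to Slc10a2 CPM was also taken within each library. It was 109, 130.0 and 72.6 in Btnl2-KO ileal γδ IELs and 608, 266, 329 and 356 in WT, with no overlap and a difference of mean log2 of -1.88. The exact two-sided permutation p was 0.0571, the smallest that 3 against 4 libraries allow, and 0.114 after Benjamini-Hochberg adjustment over the 2 ratios tested. The ratio is made of the Fabp6 and Slc10a2 values given above for these libraries, so it is not separate evidence. In WT ileal IECs the same ratio was 15.4 and 13.2, and in whole small intestine it ran from 6.27 to 80.1. The difference between the γδ IEL and IEC ratios was not tested, since the tables were made separately.

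In duodenal and jejunal γδ IELs no member passed edgeR (0.00789% and 0.00794% of all features did, 1 in each; 263 and 805 had an unadjusted p below 0.05, none of them among the 4 members tested in each; DESeq2 and limma-voom called 0 members). Fabp6 was 0.117, 0.0605 and 0.313 CPM in Btnl2-KO duodenum, within reach of single counts. In Btnl2-KO jejunum it was 0.641, 0, 32.6 and 0.174 CPM, so that Btnl2-KO jejunum 3 alone was high. The log2 difference from WT jejunum was 1.94 (SE 1.70), and -3.09 (SE 1.14; edgeR FDR 0.9999) without that library. Slc10a2 was also raised in that library alone, at 0.977 CPM against at most 0.0435 in the other three, and its epithelial sum was 1504 CPM against 605 to 5479 over the group.

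The test of whether the genotype difference varied between segments passed for none of the 7 members, comparing ileum with duodenum (0% of all features, 765 at an unadjusted p below 0.05) or with jejunum (0%, 1926). For Fabp6 the differences of differences were -3.53 (SE 3.42; edgeR FDR 0.760) and -3.96 (SE 1.48; edgeR FDR 0.306) on the log2 scale, the second becoming 1.08 without Btnl2-KO jejunum 3. DESeq2 called none of the members in either, and limma-voom called Slc51b in the second (-2.33, FDR 0.0479), among 1567 features higher and 1138 lower.

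In whole tissue the members set small intestine apart from colon. Among WT libraries Fabp6 was 105 CPM at lowest, 1875 at the median and 2714 at highest in small intestine and 1.46, 1.96 and 2.65 in colon. Slc10a2 was 6.36, 149 and 253 CPM against 0.585, 1.01 and 1.69, and Slc51a 155, 436 and 639.9 against 0.0602, 0.243 and 0.761. None of these ranges overlapped. The log2 differences of colon from small intestine were -9.75 (SE 0.691) for Fabp6, -6.92 (SE 0.885) for Slc10a2 and -10.38 (SE 0.495) for Slc51a, with edgeR FDR of 5.2e-08, 1.88e-05 and 9.3e-10.

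Slc51b fell less, by 4.42 (SE 0.345; edgeR FDR 1.39e-07), from 36.1, 148 and 200.4 CPM in small intestine to 4.198, 6.39 and 7.24 in colon. Nr1h4 was the member best kept in colon, at 32.7, 39.1 and 41.9 CPM against 62.8, 144 and 175, a fall by 1.68 (SE 0.223; edgeR FDR 2.76e-05). Fgf15 held 4625 counts in WT small intestine and 1 in WT colon, a ratio of 4070 with an exact 95% counting interval of 730.1 to 160800 (edgeR FDR 7.34e-06). WT small intestine 1 held 2108 of these Fgf15 counts, and without it the ratio was 2507 (449.5 to 99050). Nr0b2, with 0 to 0.251 CPM in small intestine and 0 to 0.117 in colon, was too low to test.

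All 6 members tested passed, where 27.6% of all features did, and all 6 passed in each of 20 alternatives, among them one without WT small intestine 2 and 3, which carried Car1. In small intestine WT 5, with its low regional score, gave the lowest Fabp6 (105 CPM) and Slc10a2 (6.36 CPM) of the WT libraries.

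**Figure D4:**
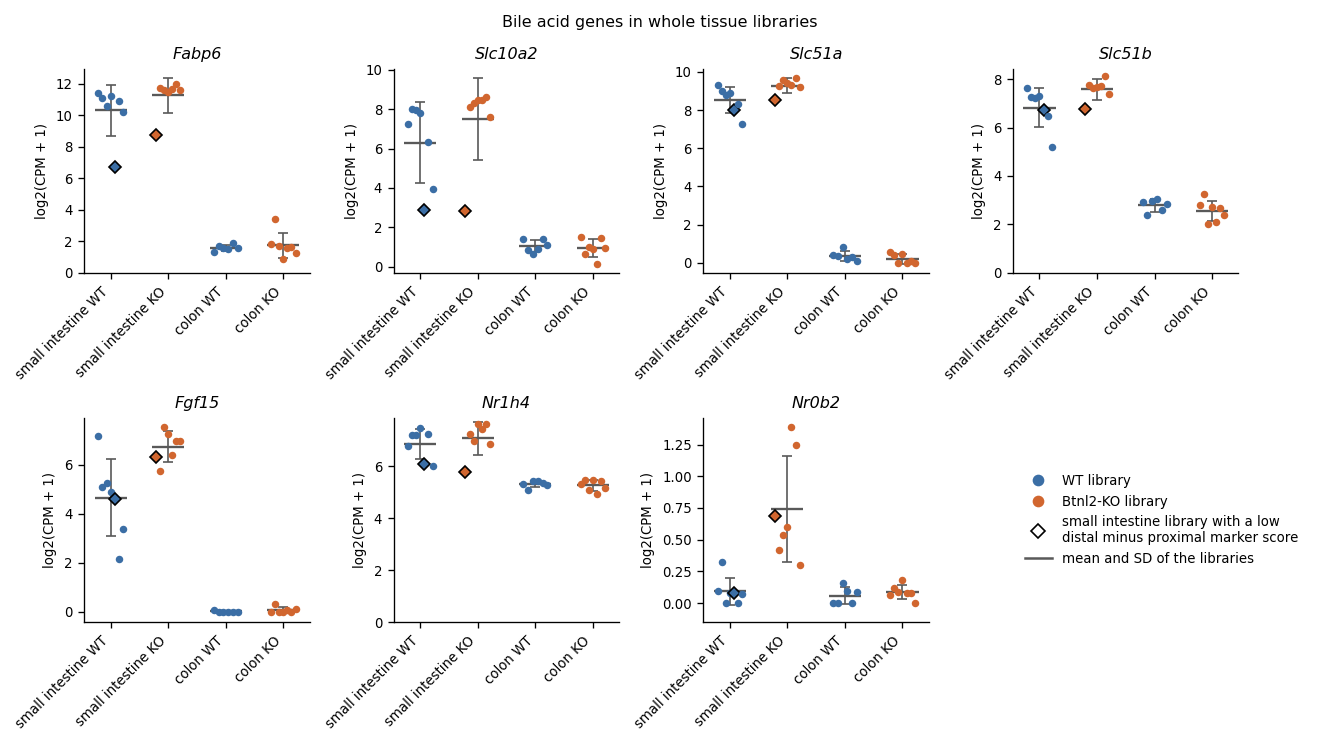
Level of each gene in each whole tissue library as log2(CPM + 1), by tissue and genotype, with bars for the mean and SD. Slc51b and Nr1h4 of WT colon sit at 4.198 to 7.24 and 32.7 to 41.9 CPM, where Slc51a does not exceed 0.761 CPM, and the diamonds mark the small intestine libraries with scores of 1.94 and 1.91.

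Between genotypes in small intestine the fitted difference was above 0 for each of the 6 tested members, but none passed edgeR (0.0202% of all features passed, 3415 had an unadjusted p below 0.05). Fgf15 was 52.6 CPM at lowest, 126 at the median and 185 at highest in Btnl2-KO and 3.50, 28.6 and 143 in WT. All 7 Btnl2-KO libraries were above 6 of the 7 WT ones, and WT 1 alone, at 143 CPM, lay in their range. The log2 difference was 1.51 (SE 0.587; edgeR p 0.0209, FDR 0.161), and 2.33 (SE 0.467; edgeR FDR 0.0556) without WT 1. Fgf15 was the member called by limma-voom (2.38, FDR 0.0491) and by the fit with all 27 tissue libraries (1.53, edgeR FDR 0.0454), and DESeq2 called none.

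Slc51a was 361 CPM at lowest, 644 at the median and 816 at highest in Btnl2-KO and 155, 436 and 639.9 in WT, a log2 difference of 0.67 (SE 0.266; edgeR p 0.0238, FDR 0.169). Slc51b, at 108, 205 and 278 against 36.1, 148 and 200.4 CPM, differed by 0.63 (SE 0.295; edgeR p 0.0498, FDR 0.217). Both subunits overlapped between genotypes. Fabp6 was 431, 3098 and 3985 CPM against 105, 1875 and 2714, and 6 of the 7 Btnl2-KO libraries exceeded every WT library, the exception being Btnl2-KO 1 with its low regional score. The log2 difference in Fabp6 was 0.74 (SE 0.518; edgeR FDR 0.385), and 0.72 (SE 0.194; edgeR p 0.00265, FDR 0.260) without Btnl2-KO 1 and WT 5. Slc10a2, at 6.17, 321 and 397 CPM against 6.36, 149 and 253, differed by 0.95 (SE 0.757; edgeR FDR 0.440), and Nr1h4 by 0.22 (SE 0.281).

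Nr0b2 was low in both genotypes, but each of the 7 Btnl2-KO libraries except Btnl2-KO 7 was above every WT one. It was 0.233 CPM at lowest, 0.517 at the median and 1.62 at highest in Btnl2-KO, from 3 to 27 counts, and 0, 0.0543 and 0.251 in WT, from 0 to 5 counts. The gene failed the count filter. In the fit without the filter the log2 difference was 3.25 (SE 0.611; edgeR p 7e-05), and the FDR was 0.113.

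Other measures moved with genotype in these libraries. The summed CPM of the absorptive cell genes Alpi, Sis and Fabp2 was 2934 to 10340 in Btnl2-KO and 585 to 3301 in WT, the 12 epithelial genes summed to 14910 to 20180 and 10020 to 19340, and none of either list was at 0 in any library. Their part in the differences was not tested. With the regional score as a covariate, the log2 differences were 1.48 for Fgf15 (edgeR FDR 0.174), 0.55 for Slc51a, 0.50 for Slc51b, 0.34 for Fabp6 and 0.24 for Slc10a2. Without WT 2 and WT 3 they were 1.46 for Fgf15 (edgeR FDR 0.193), 0.78 for Slc51a and 0.75 for Slc51b, and 274 features passed as higher and 50 as lower in Btnl2-KO, in place of 3 in all.

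In colon no member passed between genotypes (4 tested; edgeR called 0.0269% of all features, 616 had an unadjusted p below 0.05, none of them members, and DESeq2 and limma-voom called 0 members). Fabp6 was 0.873 CPM at lowest, 2.07 at the median and 9.57 at highest in Btnl2-KO against 1.46, 1.96 and 2.65 in WT. Btnl2-KO 2 alone was above the WT range. The log2 difference of 0.52 (SE 0.443; edgeR FDR 0.972) became -0.13 without that library. Nr1h4 differed by -0.04 (SE 0.0994) and Slc51b by -0.23 (SE 0.219).

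The 2 exporter subunits act only as a pair, so their levels were set side by side per kb of exon. The lengths are those of all annotated exons joined, with no correction for fragment size, which weighs most on short genes such as Fabp6 (0.479 kb) and Slc51b (0.709 kb). The ratio of Slc51a to Slc51b in CPM per kb was 1.48 to 6.05 in the 16 IEC libraries, 0.269 to 3.13 in the 22 γδ IEL libraries and 0.550 to 0.953 in the 14 small intestine libraries. The ratio was above 1 in all 16 IEC libraries on this scale, and below 1 in 1 of them if lengths are shortened for fragments of 300 bases and in 3 for fragments of 400 bases, when the IEC ratios were 0.942 to 3.86 and 0.738 to 3.02. In colon the uncorrected ratio was 0 to 0.0251, with Slc51b at 4.29 to 12.0 CPM per kb and Slc51a at 0 to 0.238, so that colon had Slc51b with little Slc51a in all 13 libraries. The difference in the ratio between IECs and whole tissue was not tested, as the tables were made separately.

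Per kb of exon in WT ileal IECs, Fabp6 stood at 1210 to 1224 CPM, Slc51a at 62.5 to 72.8, Nr1h4 at 32.3 to 34.6, Slc51b at 18.6 to 26.0, Slc10a2 at 9.14 to 10.5 and Fgf15 at 0.988 to 2.22. These ranges did not overlap, so neighbours in that order differed on this scale by more than the spread of the 2 libraries. In WT small intestine the order of the medians was Fabp6 (3915 CPM per kb), Slc51b (208), Slc51a (136), Nr1h4 (62.4), Slc10a2 (35.9), Fgf15 (9.35) and Nr0b2 (0.0480). There the ranges of all neighbours in the order overlapped over the 7 libraries, except those of Fgf15 and Nr0b2. Overlap of these ranges does not test the order, since all members were measured in the same libraries. Within each library Fabp6, Slc51b, Slc51a, Nr1h4 and Slc10a2 kept this order, while Slc10a2 lay above Fgf15 in some and below it in others.

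**Figure D5:**
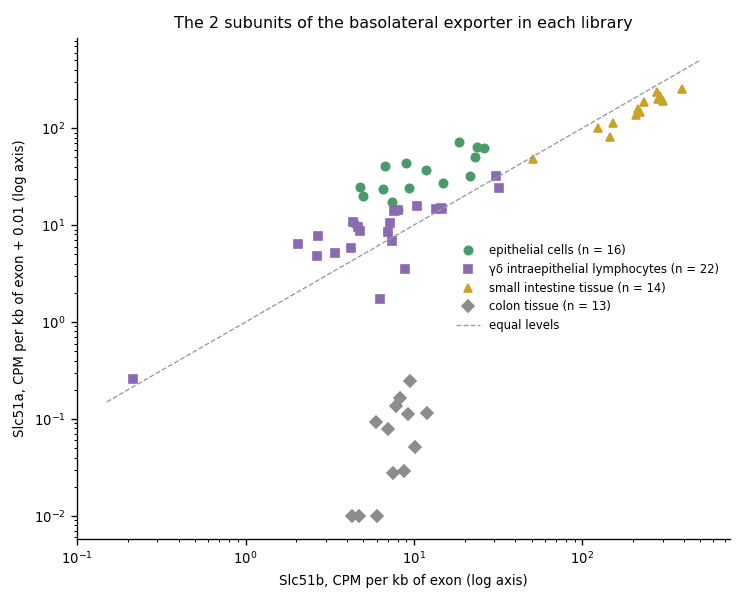
Slc51a against Slc51b in each library, both in CPM per kb of exon on log axes with 0.01 added to Slc51a, with a line for equal levels. IEC libraries lie above the line, small intestine libraries just below it, and colon libraries lie far below it at Slc51b levels of 4.29 to 12.0.

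Genes whose pattern was most like that of Fabp6 were found by Pearson's r of log2(CPM + 1) over libraries, among genes with 10 counts in at least 2 libraries. Over the 16 IEC libraries these were Nlrx1 (r 0.979), Suox (0.979), Gsdme (0.974), S100a6 (0.969) and Hoxb9 (0.968), and Slc10a2 had r 0.967, rank 6 of 13343 genes, Nr1h4 0.929 and Nr0b2 -0.667. Over the 22 γδ IEL libraries Slc10a2 ranked first (0.918 among 13574 genes), followed by Bex1 (0.895), Ddah1 (0.894) and the Paneth cell defensins Defa32 (0.893), Defa35 (0.886) and Defa33 (0.870), near-identical copies among which counting can split reads. Over the 14 small intestine libraries Suox (0.957), Slc13a1 (0.930), Hint3 (0.930), Aacs (0.929) and Mcf2l (0.926) led, and Slc10a2 had r 0.887. IEC and γδ IEL libraries share segments and labels, so their values describe how genes follow the gut axis. Spearman's rank correlation of Slc10a2 with Fabp6 was 0.96 over the IEC and 0.69 over the γδ IEL libraries. Over the small intestine libraries Pearson's and Spearman's values were 0.89 and 0.84 for Slc10a2. They were 0.68 and 0.88 for Slc51a and 0.53 and 0.92 for Slc51b, so the order depended on the measure. Fabp6 against the regional score had 0.88 and 0.52 there. The part of the libraries with a low score was not tested.

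Other genes of the pathway were counted from lists, to be read against the 4.42% of all features called between WT ileal and duodenal IECs. Of 8 other bile acid transporters tested between WT ileal and duodenal IECs, 1 fell and none rose: Abcc2, an apical conjugate exporter, by 2.13 on the log2 scale. Of 11 receptors and transcription factors 2 fell, Nr1i3 (the receptor CAR) by 2.69 and Gata4, a factor of the proximal gut, by 2.47. Of 3 synthesis and conjugation enzymes Slc27a5, a bile acid ligase, fell by 3.99. Fabp1, the liver-type fatty acid binding protein, fell by 6.30, opposite to Fabp6, and Fabp2 did not pass. None of the 3 Fgf15 axis genes passed: Malrd1, which promotes Fgf15 release, and Klb and Fgfr4, its receptor pair. The list medians were -0.18, -0.33, -0.88, -3.59 and 0.79, in the order transporters, receptors, enzymes, fatty acid binding proteins and axis genes, beside -0.01 for all features tested.

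Between WT ileal and jejunal IECs Gata4 (-1.95) and Fabp1 (-4.68) passed, both lower in ileum, and none of these genes passed between jejunum and duodenum. Among WT γδ IELs, Nr1i3 (-3.29), Gata4 (-2.14) and Fabp1 (-9.50) were lower in ileum than in duodenum. Against jejunum, Fabp1 (-5.84), Gata4 (-2.45), Abcc4 (-0.84) and Abcb1a (-0.93) were lower and Nr5a2 (1.73), which encodes the receptor LRH-1, was higher. Between jejunum and duodenum, Abcc2 (-1.45), Nr1i2 (-1.43), Nr1i3 (-1.49), Fabp1 (-3.66) and Fabp2 (-1.55) were lower in jejunum, and Abcc4 (1.15) and Abcb1a (0.97) were higher.

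In WT colon 7 of 8 other transporters passed against small intestine, where 27.6% of all features did. The cholesterol exporter subunits Abcg5 and Abcg8 fell by 3.94 and 4.67, Abcc2 by 3.54, Slco2b1 by 1.24 and Abcg2 by 1.22, and the basolateral exporters Abcc3 and Abcc4 rose by 1.20 and 0.90. Of the Fgf15 axis genes, Malrd1 fell by 6.12 while Klb rose by 3.85 and Fgfr4 by 1.37. Klb and Fgfr4 are also genes of liver, and 2 genes of a list of 4 for liver and pancreas, Alb and Ttr, rose by 5.09 and 3.38 as well. That list summed to 13.2 to 138.0 CPM in WT colon and 0.938 to 4.32 in WT small intestine, with up to 2 and up to 3 of its genes at 0 in a library. Over the same WT colon libraries the Fgf15 axis genes summed to 34.05 to 41.63 CPM. The part of the liver and pancreas genes in the differences was not tested. Fabp1 and Fabp2 fell by 8.89 and 3.81, 4 of 10 receptors and factors fell, led by Hnf4g by 2.32, and 2 of 3 enzymes fell, Cyp7b1 by 1.96 and Baat by 2.54, to be read against the same 27.6%. None of these listed genes passed between genotypes in any of the 8 comparisons of Btnl2-KO with WT, by edgeR.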

How the data were processed

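Total RNA of IECs, sorted γδ IELs and whole tissue was sequenced, and the authors aligned reads in ArrayStudio to a mouse genome (GRCm38 in the submitters' processing notes) and quantified genes with RSEM from exon reads on the sense strand. The deposited values are expected counts per gene, which need not be whole (14.9% of values were not whole in the IEC, 5% in the γδ IEL and 17.2% in the tissue table) and were rounded here. The library kit differs between the sources used here. Of 24475 gene IDs per table, 24375 matched a gene name. 1 column of the γδ IEL table belonged to no sample and was not used, and the single-cell data were not used here. Depth was 15397757 to 38258472 counts per IEC library, 13444958 to 30029485 per γδ IEL library and 13619309 to 21708721 per tissue library, and counting intervals (95%) and limits for a count of 0 (3 counts) cover counting error only.

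Groups followed the labels. Each comparison was fitted on its own groups with edgeR 4.0.16 in R 4.3.3 (quasi-likelihood F test, TMM), keeping a gene when the number of libraries in which it reached 10 counts was no smaller than the size of the smaller group, with Benjamini-Hochberg adjustment over all genes tested. The SE was the absolute log2 fold change divided by the square root of F. The genotype difference between segments was a contrast over all γδ IEL groups. Ratios were compared by exact permutation tests in scipy 1.17.1, which were not part of the planned comparisons. Scripts were tested on simulated data. Libraries are separate biological samples of a group, and p-values measure the spread between these samples. For γδ IELs the published sample sizes imply that the segments came from the same pools of mice. For IECs the segments may share mice. The sources used here do not say which libraries match, so tests between segments and the contrast over segments treat them as separate. The alternatives were DESeq2 1.42.0, limma 3.58.1 (voom with quality weights), RLE scaling, no filter, no minimum on the fold change, all libraries in 1 fit, each library left out in turn, and marker covariates. Fits without the small intestine libraries of low regional score or high Car1, effective lengths, and Fgf15 sums without the library with most counts were chosen after seeing the data. All 7 members were named in every comparison, with genes of the pathway lists that passed, the 5 genes per table most like Fabp6, and Btnl2. The members and lists were chosen with earlier results of these data known. Genes named beyond this rule, such as Car1, were chosen after their values were seen.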

Additional observations from a re-analysis of the deposited data

Results flagged for a closer look

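Within groups of 4 to 10 libraries, 55 sets of values of a member were checked for a highest or lowest library standing apart from the rest, and 11 were picked out. The cut-offs pick out about 1 in 20 groups of normally spread values. That rate does not hold here, since many values are at or near 0 and a group with counts in only 1 library is always picked out. The 11 of 55 can thus not be set against it. Most of the 11 rest on very few counts.

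In γδ IELs of Btnl2-KO jejunum, library 3 stood apart with 32.6 CPM of Fabp6 (534 counts, the others at 0 to 0.641 CPM) and 0.977 CPM of Slc10a2 (16 counts, the others at 0 to 0.0435). Library 1 of the same group stood apart with 0.160 CPM of Fgf15 (3 counts) and 0.107 CPM of Nr0b2 (2 counts), with none in the other three. In WT ileal γδ IELs, library 2 had 0.502 CPM of Nr0b2 (7 counts), and the other three had none.

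In whole small intestine, Btnl2-KO 1 stood apart with 431.0 CPM of Fabp6 against 2893 to 3985 in the other 6, its regional marker score being 1.94. WT 1 stood apart with 143 CPM of Fgf15 (2108 counts) against 3.50 to 37.7, and WT 2 with 0.251 CPM of Nr0b2 (5 counts) against 0 to 0.0678. In colon, Btnl2-KO 2 had 9.57 CPM of Fabp6 (114 counts) against 0.873 to 2.49 and 0.252 CPM of Fgf15 (3 counts) against 0 to 0.0711, and WT 1 had the only Fgf15 count of its group, at 0.0470 CPM.

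No member had every Btnl2-KO library on one side of WT in 1 segment and on the other side in another, over the 42 pairs of segments compared.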

How the results depend on the processing

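The number of members called was within 1.5 times the reported one in 93 of the alternatives other than leaving out a library and outside it in 19. Among those that left out 1 library it was within that range in 138 and outside it in 24. A reported 0 that stayed 0, as in many genotype comparisons, is among those within. One fit with all libraries of a table gave 0 between WT ileal and duodenal IECs (reported 5), 0 between ileum and jejunum (4) and 0 between jejunum and duodenum (1). In γδ IELs it gave 1 (reported 2), 3 (5) and 0 (1), and for genotype in small intestine 1 (0). DESeq2 gave 2 between WT IEC jejunum and duodenum, 5 between WT γδ IEL ileum and duodenum and 3 for genotype in ileal γδ IELs (reported 0). Limma-voom gave 3, 5 and 4 in these, 1 for genotype in small intestine and 1 for the genotype difference in ileal against jejunal γδ IELs. Without a filter the counts were 2, 5 and, between WT γδ IEL jejunum and duodenum, 2, and the epithelial covariate gave 1 between WT γδ IEL ileum and duodenum. Leaving out 1 library gave 2 to 7, 2 to 4 and 0 to 1 in the IEC comparisons, 1 to 6, 4 to 5 and 1 to 2 in γδ IELs, and 0 to 1 for genotype in duodenal IECs and in ileal γδ IELs.

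For genotype, the log2 difference in Fabp6 turned with 1 library left out in duodenal IECs (-2.61 to 7.56), jejunal IECs (-1.43 to 4.71), jejunal γδ IELs (-3.09 to 2.48), colon (-0.13 to 0.68) and the ileal against jejunal difference (-4.51 to 1.08), and in Slc10a2 in duodenal (-0.46 to 5.61) and jejunal IECs (-0.38 to 4.06). Limma-voom also turned Fabp6 in jejunal IECs (-1.40), jejunal γδ IELs (-1.81) and colon (-0.14), and Slc10a2 in jejunal IECs (-0.41). Apart from the fits that left out a named library, the cause was not tested.

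Counts over all features, higher and lower, moved as well. Between WT ileal and duodenal IECs they were 355 and 210 as reported, 594 and 448 by DESeq2 and 1072 and 683 by limma-voom, between ileum and jejunum 99 and 46 against 207 and 136 by DESeq2, and between jejunum and duodenum 21 and 19 against 182 and 147 by DESeq2, 88 and 64 by limma-voom and 53 and 50 without a filter. Between WT γδ IEL ileum and duodenum they were 144 and 127 against 291 and 211 by DESeq2, 309 and 235 by limma-voom and 58 and 60 with all libraries, and between ileum and jejunum 1369 and 1379 against 2173 and 2042 by limma-voom and 522 and 904 with all libraries. For genotype in small intestine they were 2 and 1 against 163 and 14 by DESeq2, 177 and 38 with all libraries and 38 and 13 by limma-voom. In colon DESeq2 gave 4 and 6 against 2 and 2.

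No paired analysis was possible because the replicate numbers were given in accession order and pair no samples, and nothing in the sources used here says which libraries of different segments share mice. Depth limits Nr0b2, Fgf15 in γδ IELs and Slc10a2 in γδ IELs, which rest on few counts.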
